A study of Mus musculus with 10 samples.

Results

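Immediate early genes are transcribed within minutes of a stimulus, with no need for new protein, and their messages are short lived. Growth factors, cytokines, mechanical strain and receptor ligands reach them through MAP kinases, the serum response factor SRF and CREB. In cultured vascular smooth muscle cells angiotensin II, acting on its type 1 receptor, is a known inducer of Fos, Jun and Egr1. Many of their products switch the same response off again: Dusp1 dephosphorylates MAP kinases and Zfp36 destabilises AU-rich messages. The 10 genes described here were chosen by name: the AP-1 subunits Fos, Fosb, Jun and Junb and their bZIP relative Atf3, the zinc finger factor Egr1, the nuclear receptor Nr4a1, the early response gene Ier2, and the feedback genes Dusp1 and Zfp36. All 10 were among the 37882 genes of the deposited table, and all 10 were among the 14063 that passed the low-count filter.

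RNA was measured in tumours grown in the mammary site of FVB/N mice from MCa-M3C breast cancer cells. The 5 TMA-ARB tumours received valsartan at 40 mg/kg in its TMA-ARB form, an angiotensin receptor blocker built to be activated in the tumour microenvironment, and the 5 control tumours received PBS; both were injected into a vein behind the eye daily for 6 days, starting at about 100 mm3. The labels give no genotype, sex or age beyond the strain, and all tumours come from a single cell line. Whether every library came from its own mouse is not stated, and p-values here cover only how far the libraries of a group lie apart.

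Library totals ran from 12742953 to 15468825 counts under TMA-ARB and from 14266136 to 16884621 in controls. Mitochondrially encoded genes took a share of the counts that ran from 2.22% to 25.0% under TMA-ARB and from 2.07% to 6.63% in controls. Levels are given as CPM, counts scaled to each library's TMM-adjusted size; a log2 fold change is the edgeR estimate for TMA-ARB divided by control. Of 14 mammary epithelial markers 9 were high enough to test: Krt18 ran from 82.5 to 201 CPM under TMA-ARB and from 62.1 to 143 CPM in controls, while Epcam had medians of 0.820 and 1.43 CPM in TMA-ARB and control tumours, Cldn3 0.0739 and 0 CPM, and Pgr 0 and 0 CPM. The fibroblast and mural marker list summed to between 5555 and 6900 CPM under TMA-ARB and between 5344 and 7025 CPM in controls. In such bulk RNA, fewer cells of a type and less RNA per cell cannot be told apart.

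Immediate early promoters are known for short stimulus-response elements, and these letters were looked for. RefSeq windows on GRCm38.p6 were matched for 8 of the 10 genes, with none for Egr1 and Ier2. The 250 bases before the start were searched, where the start is the RefSeq one. It can differ from the end of the GENCODE gene positions given further on. The windows of Nr4a1, Dusp1, Atf3 and Zfp36 lie inside those positions. The search was for TGACGTCA, the cAMP response element bound by CREB and Atf3, and for its core TGACG, which lies within it. It also took in the AP-1 site TGAGTCA, the Egr site GCGTGGGCG and the CArG box bound by SRF. All were read on both strands, and the TATA box TATAAA on the gene's strand alone. The TGACG core was present in 6 of the 8 windows and in 17.8% of all 32851 windows; TGACGTCA was in 1 of 8 (1.55% of all) and the CArG box in 1 of 8 (1.47%). TGAGTCA was in 0 of 8 (4.46% of all), GCGTGGGCG in 0 of 8 (0.536%) and TATAAA in 1 of 8 (7.59%). These matches are descriptions of letters in a window, not binding sites. Bases outside the 250 were not searched, so a gene without a match may carry the element elsewhere. Fos, Nr4a1 and Dusp1 are shown because their windows held more than 1 TGACG core, and Zfp36 because its window held the CArG box; capitals mark TGACG on either strand, TGACGTCA and the CArG box.
Fos (chr12:85473640-85473889, + strand): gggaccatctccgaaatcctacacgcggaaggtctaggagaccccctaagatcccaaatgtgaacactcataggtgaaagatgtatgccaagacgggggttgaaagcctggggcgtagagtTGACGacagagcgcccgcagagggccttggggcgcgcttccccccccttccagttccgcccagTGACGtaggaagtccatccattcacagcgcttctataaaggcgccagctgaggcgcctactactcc
Nr4a1 (chr15:101266596-101266845, + strand): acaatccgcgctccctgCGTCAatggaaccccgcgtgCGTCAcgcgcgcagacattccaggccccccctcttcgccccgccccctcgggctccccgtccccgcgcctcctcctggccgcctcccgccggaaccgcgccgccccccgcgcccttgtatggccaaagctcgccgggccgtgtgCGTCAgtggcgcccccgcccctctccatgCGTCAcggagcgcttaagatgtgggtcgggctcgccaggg
Dusp1 (chr17:26508523-26508722, - strand): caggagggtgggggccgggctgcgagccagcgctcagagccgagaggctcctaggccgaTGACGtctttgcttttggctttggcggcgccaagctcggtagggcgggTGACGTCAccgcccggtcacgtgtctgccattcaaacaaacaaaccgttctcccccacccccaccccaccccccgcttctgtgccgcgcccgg
Zfp36 (chr7:28379267-28379296, - strand): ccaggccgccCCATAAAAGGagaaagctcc

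In the Fos window the cores ended 125 and 62 bases before the start, and TATAAA ended 28 bases before it. Nr4a1 held 4 cores, all on the opposite strand, that ended 229, 209, 65 and 36 bases before the start. In Dusp1 the full TGACGTCA ended 136 bases before the start and a further core 187 bases before it. The CArG box of Zfp36 ended 49 bases before the start. The windows of Fosb, Junb and Atf3 held 1 core each, and that of Jun held none of the letters searched.

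All 10 genes had a negative log2 fold change, from -1.0 for Fos to -0.05 for Ier2, with a median of -0.41; over all genes tested the median was 0.02 and 47.2% were negative. None of the 10 passed edgeR at an adjusted p under 0.05 (0 of 10; 0.0% of all genes tested), and the adjusted p was 0.997 for each of them. Fos and Zfp36 reached an unadjusted p under 0.05 (2 of 10), against 1.66% of all genes in that direction. DESeq2 called 0 of the 10 (0.00837% of all genes) with 2 of 10 at an unadjusted p under 0.05 (1.34% of all genes in that direction). Limma-voom with sample weights also called 0 of the 10 (0.0% of all genes), with 9 of 10 negative (51.3% of all genes) and 1 of 10 at an unadjusted p under 0.05 (5.23% in that direction). The groups overlapped for every gene (0 of 10 without overlap, against 0.363% of all genes lower under TMA-ARB).

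**Figure D1:**
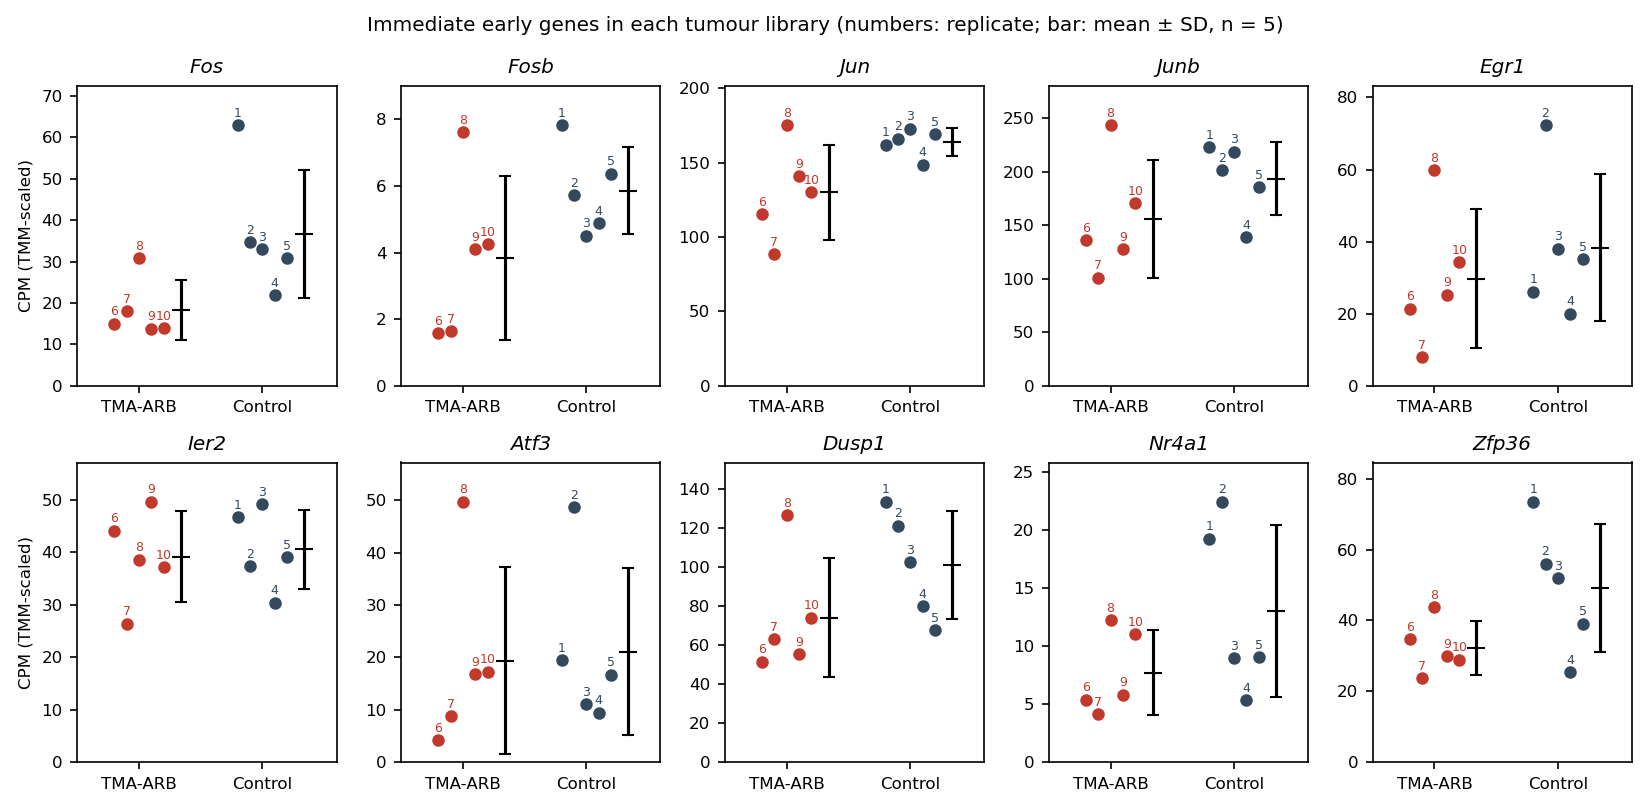
Level of each of the 10 genes in each library, as CPM on TMM-scaled library sizes (vertical axes start at 0 and differ between panels); points carry the replicate number and the bar beside each group is its mean ± SD (n = 5). TMA-ARB replicate 8 is the highest of its group for 9 of the 10 genes, and the lowest library of all 10 is a TMA-ARB library in every panel.

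Fos, the AP-1 subunit that pairs with Jun proteins, lies on chromosome 12 (85473890 to 85477273, plus strand). It measured 15.0, 18.0, 30.9, 13.8 and 13.9 CPM in TMA-ARB replicates 6 to 10, against 62.9, 34.7, 33.0, 22.0 and 30.8 CPM in control replicates 1 to 5. TMA-ARB replicates 6, 7, 9 and 10 lay below every control, while replicate 8 lay within the control range. The means were 18.3 ± 7.22 CPM under TMA-ARB and 36.7 ± 15.5 CPM in controls (SD, n = 5 each). Its log2 fold change of -1.0 ± 0.30 (SE; edgeR unadjusted p = 0.00490) was -0.72 with control replicate 1 left out and -1.26 with TMA-ARB replicate 8 left out, the extremes over single libraries.

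Fosb, a second Fos-family subunit (chromosome 7, 19302696 to 19310051, minus strand), was the least abundant of the 10. TMA-ARB replicates 6 to 10 held 1.57, 1.64, 7.61, 4.10 and 4.26 CPM, from 25 to 103 counts, against 7.82, 5.72, 4.51, 4.88 and 6.37 CPM in control replicates 1 to 5. Replicates 6 and 7 stood lowest and replicate 8 reached nearly the level of the highest control. The log2 fold change was -0.61 ± 0.43, and -1.02 without TMA-ARB replicate 8.

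Jun, the founding Jun-family subunit (chromosome 4, 95049034 to 95052222, minus strand), was the steadiest gene of the 10 among controls. It measured 115, 88.6, 175, 141 and 130 CPM in TMA-ARB replicates 6 to 10 and 162, 166, 173, 149 and 169 CPM in control replicates 1 to 5. The coefficient of variation was 24.6% under TMA-ARB and 5.72% in controls. All TMA-ARB libraries but replicate 8 lay below every control. The log2 fold change of -0.33 ± 0.18 did not pass, and was -0.22 without TMA-ARB replicate 7.

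Junb, the Jun-family subunit that can restrain Jun (chromosome 8, 84974484 to 84978718, minus strand), ran from 101 to 244 CPM under TMA-ARB and from 139 to 223 CPM in controls. Its log2 fold change was -0.31 ± 0.23, -0.53 without TMA-ARB replicate 8 and -0.19 without replicate 7. Junb overlaps Prdx2, Dusp1 overlaps Ergic1 and Jun overlaps Junos, each on the opposite strand; the strand setting of the counting is not given in the sources used here, so reads from those stretches may not be told apart. Dusp1 also overlaps 2 further annotated genes on its own strand, which a strand setting cannot separate. Neither is among the genes of the deposited table.

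Atf3, a stress-induced bZIP factor that can repress its targets (chromosome 1, 191170296 to 191218039, minus strand), spread most within both groups. TMA-ARB replicates 6 to 10 measured 4.24, 8.82, 49.7, 16.8 and 17.3 CPM, against 19.5, 48.6, 11.05, 9.47 and 16.7 CPM in control replicates 1 to 5. Its highest values were in TMA-ARB replicate 8 and control replicate 2, so the groups overlap over most of their range. The coefficient of variation was 92.0% under TMA-ARB and 75.6% in controls. The log2 fold change of -0.13 ± 0.63 had the other sign when control replicate 2 (0.44), TMA-ARB replicate 6 (0.14) or TMA-ARB replicate 7 (0.06) was left out, and was -0.85 when TMA-ARB replicate 8 was.

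Egr1, a zinc finger factor induced through SRF, measured 21.4, 7.89, 59.8, 25.3 and 34.3 CPM in TMA-ARB replicates 6 to 10, against 26.2, 72.3, 38.1, 20.02 and 35.1 CPM in control replicates 1 to 5. As for Atf3, TMA-ARB replicate 8 and control replicate 2 were the highest of their groups. The log2 fold change was -0.37 ± 0.47. Leaving out control replicate 2 gave -0.01, TMA-ARB replicate 7 -0.12 and TMA-ARB replicate 8 -0.79.

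Nr4a1, an orphan nuclear receptor also called Nur77 (chromosome 15, 101254269 to 101274795, plus strand), measured 5.39, 4.14, 12.3, 5.84 and 11.01 CPM in TMA-ARB replicates 6 to 10, against 19.3, 22.4, 8.96, 5.38 and 9.04 CPM in control replicates 1 to 5. Control replicates 1 and 2 stood above all other libraries, and the other controls lay within the TMA-ARB range. The log2 fold change was -0.75 ± 0.42, and leaving out control replicate 2 gave -0.47.

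Of the feedback genes, Zfp36, which encodes tristetraprolin (chromosome 7, 28376784 to 28380253, minus strand), measured 34.8, 23.8, 43.7, 29.9 and 28.9 CPM in TMA-ARB replicates 6 to 10, against 73.5, 56.0, 51.8, 25.5 and 39.1 CPM in control replicates 1 to 5. Control replicates 1, 2 and 3 lay above every TMA-ARB library and control replicate 4 below most of them. The means were 32.2 ± 7.52 CPM under TMA-ARB and 49.2 ± 18.1 CPM in controls (SD, n = 5 each), a log2 fold change of -0.61 ± 0.26 (edgeR unadjusted p = 0.0348) that was -0.42 without control replicate 1.

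Dusp1, the MAP kinase phosphatase gene (chromosome 17, 26505590 to 26562128, minus strand), measured 51.4, 63.0, 126, 55.5 and 74.0 CPM in TMA-ARB replicates 6 to 10, against 133, 121, 103, 79.7 and 67.5 CPM in control replicates 1 to 5. TMA-ARB replicates 6, 7 and 9 lay below every control, and replicate 8 reached the level of the highest ones. The log2 fold change was -0.45 ± 0.26, and -0.72 when replicate 8 was left out. Ier2, an early nuclear protein gene (chromosome 8, 84661331 to 84662852, minus strand), had means closer than the spread of either group, with 39.2 ± 8.68 CPM under TMA-ARB and 40.5 ± 7.50 CPM in controls (SD, n = 5 each); its log2 fold change of -0.05 ± 0.20 had the other sign when control replicate 1 (0.004), control replicate 3 (0.03) or TMA-ARB replicate 7 (0.07) was left out.

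The same libraries were high or low for most of the genes. Against the control mean of each gene on the log2 CPM scale, the 10 genes averaged -0.89, -1.12, 0.33, -0.52 and -0.35 in TMA-ARB replicates 6 to 10, and 0.33, 0.41, -0.05, -0.58 and -0.12 in control replicates 1 to 5. All 10 genes were below the control mean in TMA-ARB replicates 7 and 10, and 9 of 10 in replicates 6 and 9. In replicate 8 only 3 of 10 were below it. Among controls, replicate 4 was also below for all 10 genes, and was the lowest control for 8 of them. The highest library of all was a control for 6 genes, TMA-ARB replicate 8 for Jun, Junb and Atf3, and TMA-ARB replicate 9 for Ier2.

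With each group's mean removed, log2 CPM over the 10 libraries correlated positively in 45 of 45 pairs of genes, with a median Pearson r of 0.65; over all pairs of tested genes 50% were positive and the median r was 0. These correlations share library depth and scaling. In permutations within groups, 0 of 45 pairs passed for Pearson's r and 1 of 45 for Spearman's rho at an adjusted p under 0.05. The passing pair was Atf3 with Nr4a1 (r = 0.79, permutation p = 0.00566, adjusted p = 0.0671; rho = 0.92, permutation p = 0.00059, adjusted p = 0.02655), with r = 0.85 after leaving out the 2 libraries farthest from the Atf3 median. The largest r was between Jun and Egr1 (r = 0.86, permutation p = 0.00729, adjusted p = 0.0671; rho = 0.76, permutation p = 0.0273, adjusted p = 0.136), and it was 0.51 after leaving out the 2 libraries farthest from the Jun median. Fos and Fosb were less alike (r = 0.50, permutation p = 0.126, adjusted p = 0.183; rho = 0.27, permutation p = 0.460, adjusted p = 0.576); without the 2 libraries farthest from the Fos median r was -0.32, so the relation rests on those libraries. Ier2 stood apart, with r from 0.06 (Atf3) to 0.64 (Zfp36).

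**Figure D2:**
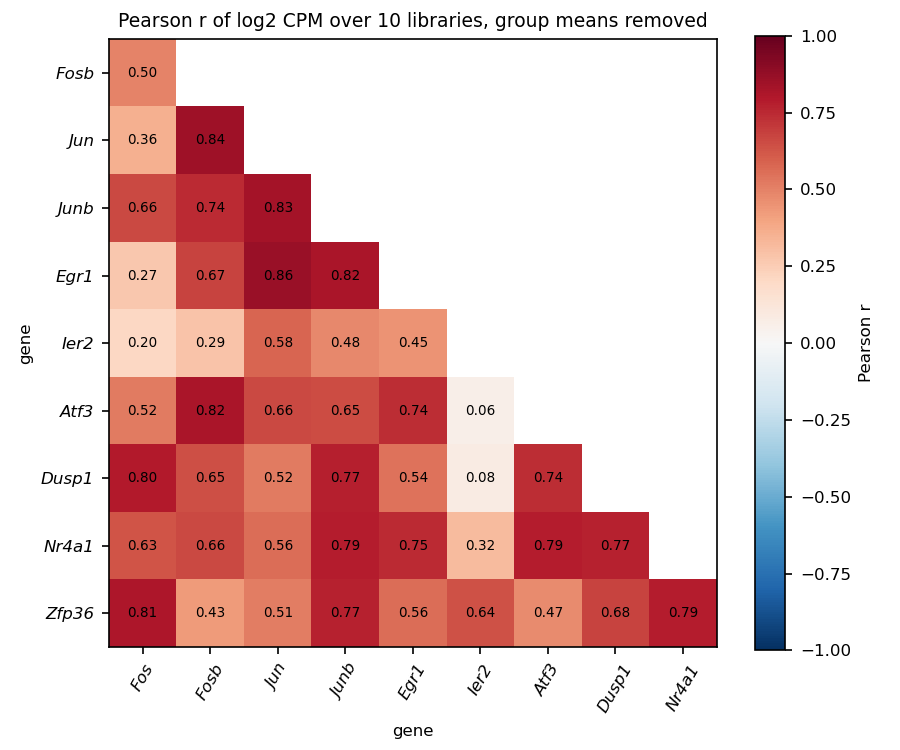
Pearson r of log2 CPM for each of the 45 pairs of genes over the 10 libraries, after removing the mean of each group; both axes list the genes and colour runs from -1 to 1. All 45 values are positive, and the palest cells belong to Ier2.

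The 6 genes outside the list whose group-centred log2 CPM followed the mean of the 10 most closely, among 10850 genes with a mean of at least 5 CPM, are given as a description with no test. Socs3, a cytokine feedback inhibitor, had the highest Pearson r (0.96; rho = 0.94), and its mean was 71.2 ± 27.6 CPM under TMA-ARB and 80.2 ± 17.4 CPM in controls (SD, n = 5 each). Pim1, a serine/threonine kinase gene, and Nos2, the inducible nitric oxide synthase gene, both had r = 0.94. Pim1 averaged 59.8 ± 52.7 CPM under TMA-ARB and 62.8 ± 29.2 CPM in controls, and Nos2 10.1 ± 11.6 and 14.8 ± 14.3 CPM in TMA-ARB and control tumours. Cln3 (0.94), the coagulation factor X gene F10 (0.94) and the kinase gene Clk3 (0.93) completed the 6. Their log2 fold changes ran from -0.55 for Nos2 to 0.16 for Cln3, and none passed edgeR (0 of 6 at an adjusted p under 0.05, and 0 of 6 at an unadjusted p under 0.05).

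The fold changes were also computed on either side of a 5% mitochondrial share. TMA-ARB replicates 6 and 7 (2.22% and 3.18%) and control replicates 1, 2 and 5 (2.15%, 2.07% and 3.75%) lay below 5%, and TMA-ARB replicates 8, 9 and 10 (10.5%, 25.0% and 11.7%) and control replicates 3 and 4 (6.37% and 6.63%) above it. Below 5% all 10 log2 fold changes were negative with a median of -1.15. The share of all genes that were negative on this side was not counted, so that sign count has no background. Of the 10, 9 had an unadjusted p under 0.05, against 4.37% of all genes in that direction. None passed after adjustment (0 of 10, against 0.0% of all genes). Fosb stood at -2.03 ± 0.46, Atf3 at -2.13 ± 0.54, Nr4a1 at -1.82 ± 0.43, Egr1 at -1.60 ± 0.57 and Fos at -1.37 ± 0.35 (SE, 2 TMA-ARB against 3 control libraries). Above 5% 4 of 10 were negative (49.1% of all genes), with a median of 0.03. Against the control mean of each gene, the 10 genes averaged 0.33, -0.52 and -0.35 log2 CPM in TMA-ARB replicates 8, 9 and 10. They averaged -0.05 and -0.58 in control replicates 3 and 4. No fit on this side left out TMA-ARB replicate 8. Above 5% none passed (0 of 10, against 0.027% of all genes). Atf3 alone had an unadjusted p under 0.05 there (1 of 10, against 7.24% of all genes in either direction). In these libraries Fos was at -0.49 ± 0.37, Zfp36 at -0.19 ± 0.32, Jun at -0.12 ± 0.21 and Dusp1 at -0.10 ± 0.32, while Atf3 was at 1.44 ± 0.50, Egr1 at 0.45 ± 0.40 and Nr4a1 at 0.43 ± 0.43 (SE, 3 against 2 libraries).

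The difference between the sides was tested with an interaction term in edgeR over all genes, added after the data had been seen. The term was positive for all 10 genes. The share of all genes with a positive term was not counted, so this sign count has no background. The term was not refitted without TMA-ARB replicate 8. It passed for none of the 10 genes at an adjusted p under 0.05 (0 of 10, against 0.0711% of all genes). Atf3, Nr4a1, Fosb and Egr1 had an unadjusted p under 0.05 (4 of 10, against 10.6% of all genes in either direction and 6.01% in the positive direction). The largest was Atf3 at 3.56 ± 0.88 on the log2 scale (SE; edgeR adjusted p = 0.263), followed by Nr4a1 at 2.27 ± 0.63 (adjusted p = 0.266). When the log2 of that share entered the fit as a covariate over all 10 libraries, all 10 values were negative (50.3% of all genes) with a median of -0.48; 3 of 10 had an unadjusted p under 0.05 (2.82% of all genes in that direction) and 0 of 10 passed (0.0%). The part of the mitochondrial share in the fold changes was not tested beyond these fits.

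**Figure D3:**
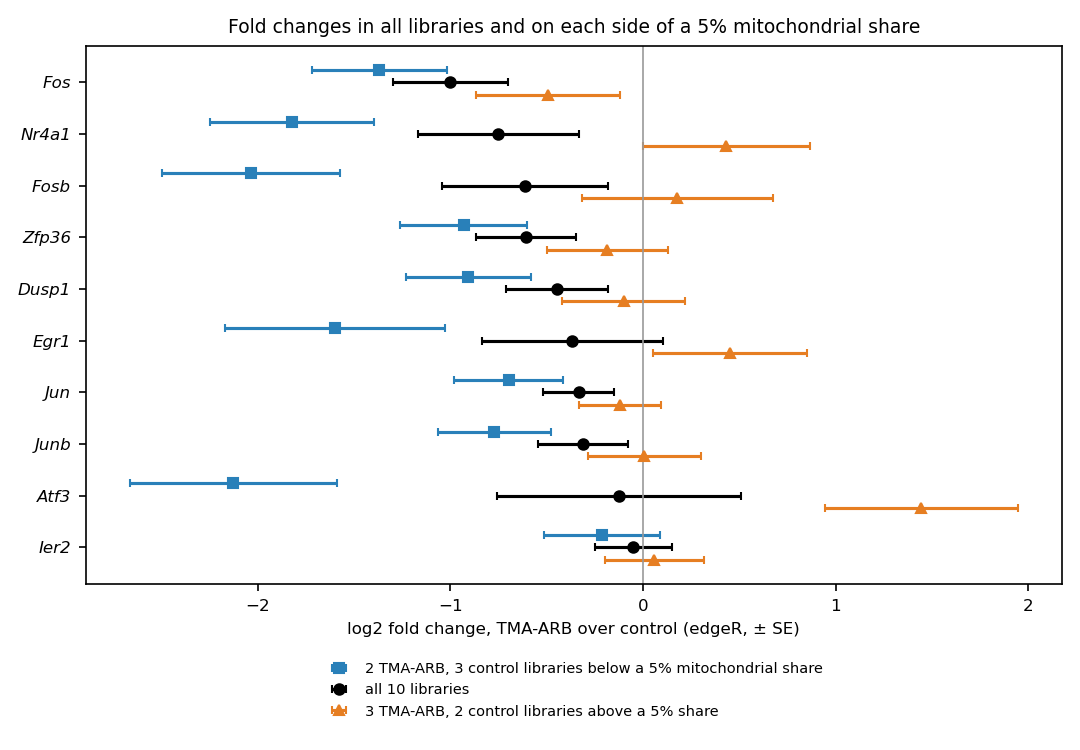
Log2 fold change, TMA-ARB over control, of each gene in edgeR (horizontal axis, ± SE), in all 10 libraries (circles), in the 5 libraries with a mitochondrial share below 5% (squares) and in the 5 above it (triangles). The squares lie left of the triangles for all 10 genes, most widely for Atf3 (-2.13 and 1.44), and only the Fos, Zfp36, Dusp1 and Jun triangles lie left of 0.

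Markers of other cell types also differed between libraries. The 12 T and NK cell markers summed to between 21.5 and 41.5 CPM under TMA-ARB and between 30.3 and 181 CPM in controls. Control replicates 1 and 2 held 163 and 181 CPM. All 12 had negative log2 fold changes (12 of 12, median -0.84), led by Nkg7 (-1.03), Klrb1c (-2.39) and Prf1 (-2.82). Prf1 alone held 88.6 and 95.9 CPM in control replicates 1 and 2. It held 4.38, 7.60 and 3.88 CPM in control replicates 3 to 5, within its TMA-ARB range of 3.18 to 9.63 CPM. Klrb1c and Cd3e were at 0 in at least 1 TMA-ARB library. The 12 endothelial markers summed to between 337 and 470 CPM under TMA-ARB and between 400 and 630 CPM in controls (10 of 12 negative; median -0.36), with Flt1 at -0.56, Plvap at -0.51 and Vwf at -0.89 (-0.46 without control replicate 2). The 10 myeloid markers summed to between 792 and 4819 CPM under TMA-ARB and between 1389 and 3852 CPM in controls (8 of 10 negative; median -0.17; Cd14 at -0.48, Csf1r at -0.58 and Ptprc at -0.18). The myeloid sums were 2473, 4819, 1419, 792 and 1268 CPM in TMA-ARB replicates 6 to 10, and 3852, 2795, 1389, 2076 and 1779 CPM in control replicates 1 to 5. The highest was in TMA-ARB replicate 7, where the immediate early genes were lowest, and the next in control replicates 1 and 2, where they were above the control mean; Lyz2 alone reached 3725 CPM under TMA-ARB and 2757 CPM in controls. The 8 neutrophil markers summed to between 184 and 861 CPM under TMA-ARB and between 145 and 695 CPM in controls. Mmp9 alone reached 608 CPM under TMA-ARB and 345 CPM in controls, with medians of 34.1 and 38.5 CPM, and Ly6g held 14 counts over all libraries. Of the neutrophil markers 5 of 7 tested were negative, with Csf3r at -0.59, Retnlg at -0.59 and Mmp8 at 0.65 (-0.20 without TMA-ARB replicate 8). Skeletal muscle markers summed to between 68.9 and 284 CPM under TMA-ARB and between 89.0 and 244 CPM in controls (6 of 6 tested negative; median -1.60, with Des at -2.83, Mylpf at -2.43 and Myh1 at -1.61, which were -1.25 and -1.53 without control replicate 1 and -0.79 without control replicate 3), and adipocyte markers to between 46.2 and 69.5 CPM and between 47.8 and 70.9 CPM in TMA-ARB and control tumours (Lpl at 0.70, or 0.15 without TMA-ARB replicate 7, Pparg at -0.85, or -0.30 without control replicate 4, and Fabp4 at -0.16). Fibroblast and mural markers had 7 of 11 tested negative (median -0.06), with Pdgfrb at -0.58, Col1a2 at 0.59 and Lum at 0.95 (0.15 without TMA-ARB replicate 7). Epithelial markers had 1 of 9 negative (median 0.77), with Krt8 at 1.23, Krt14 at 2.02 and Krt7 at 1.17; without TMA-ARB replicate 6 Krt8 was at 0.71 and Krt7 at 0.65, and without TMA-ARB replicate 9 Krt14 was at 1.26. No marker of any list passed edgeR at an adjusted p under 0.05. The part of these cell types in the immediate early gene values was not tested.

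Levels between genes were compared per kilobase of annotated exon. Under TMA-ARB the order from high to low was Junb (67.8 ± 23.9 CPM per kb), Jun (40.8 ± 10.0), Ier2 (25.7 ± 5.70), Dusp1 (22.4 ± 9.20), Zfp36 (9.29 ± 2.17), Atf3 (8.99 ± 8.28), Fos (7.79 ± 3.07), Egr1 (6.63 ± 4.30), Nr4a1 (2.20 ± 1.04) and Fosb (0.615 ± 0.396; SD, n = 5). In controls it was Junb (84.2 ± 14.7 CPM per kb), Jun (51.4 ± 2.94), Dusp1 (30.4 ± 8.31), Ier2 (26.6 ± 4.93), Fos (15.6 ± 6.58), Zfp36 (14.2 ± 5.21), Atf3 (9.79 ± 7.40), Egr1 (8.55 ± 4.53), Nr4a1 (3.71 ± 2.11) and Fosb (0.939 ± 0.211). In controls the neighbours Dusp1 and Ier2, Fos and Zfp36, Zfp36 and Atf3, and Atf3 and Egr1 differed by less than 1 SD of their within-library log2 difference. Fos stood above Zfp36 and Atf3 in the order of the control means and below both in that of the TMA-ARB means. These TMA-ARB means differ by less than the SD of Atf3. With the longest transcript in place of all exons, Zfp36 (17.6 CPM per kb) stood above Fos (17.4 CPM per kb) in controls too.

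AP-1 is a dimer of a Jun protein with a Fos or another bZIP protein, so the makeup of its messages was set side by side for 7 subunits, per kilobase of exon. Jund, a Jun-family subunit with steady expression in many cells, held the largest share, 34.9% ± 3.01 under TMA-ARB and 36.4% ± 4.89 in controls (SD, n = 5 each). Junb held 23.5% ± 2.09 under TMA-ARB and 24.3% ± 3.19 in controls, and Jun 14.5% ± 1.10 and 14.9% ± 1.01 in TMA-ARB and control tumours. Per kilobase, the most abundant Fos-family subunit was Fosl1, which encodes Fra-1, and not Fos. In CPM, before division by exon length, the means of Fosl2 stood above those of Fosl1 and of Jund. Jund averaged 165 ± 45.7 CPM under TMA-ARB and 210 ± 32.8 CPM in controls. Fosl2 averaged 204 ± 125 CPM under TMA-ARB and 223 ± 59.3 CPM in controls, and Fosl1 97.9 ± 26.4 and 91.5 ± 27.9 CPM. Annotated exons span 9680 bases for Fosl2, 2033 bases for Fosl1 and 1668 bases for Jund. Fosl1 held 17.2% ± 3.50 under TMA-ARB and 12.9% ± 3.13 in controls, and Fosl2 6.92% ± 2.27 and 6.70% ± 1.91 in TMA-ARB and control tumours.

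The Fos share was 2.59%, 4.07%, 3.18%, 2.14% and 1.95% in TMA-ARB replicates 6 to 10, against 7.64%, 4.52%, 3.47%, 3.02% and 3.87% in control replicates 1 to 5. The groups overlap, since TMA-ARB replicates 7 and 8 lay above the lowest control. The difference of -1.72 percentage points had a two-sided exact permutation p of 0.0635, where the smallest possible is 0.00794. The Fos-family share as a whole was 27.1% ± 3.89 under TMA-ARB and 24.4% ± 2.78 in controls, a difference of 2.68 points (exact permutation p = 0.286). Fosl1 had a log2 fold change of 0.10 ± 0.24 (97.9 ± 26.4 CPM under TMA-ARB and 91.5 ± 27.9 CPM in controls).

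**Figure D4:**
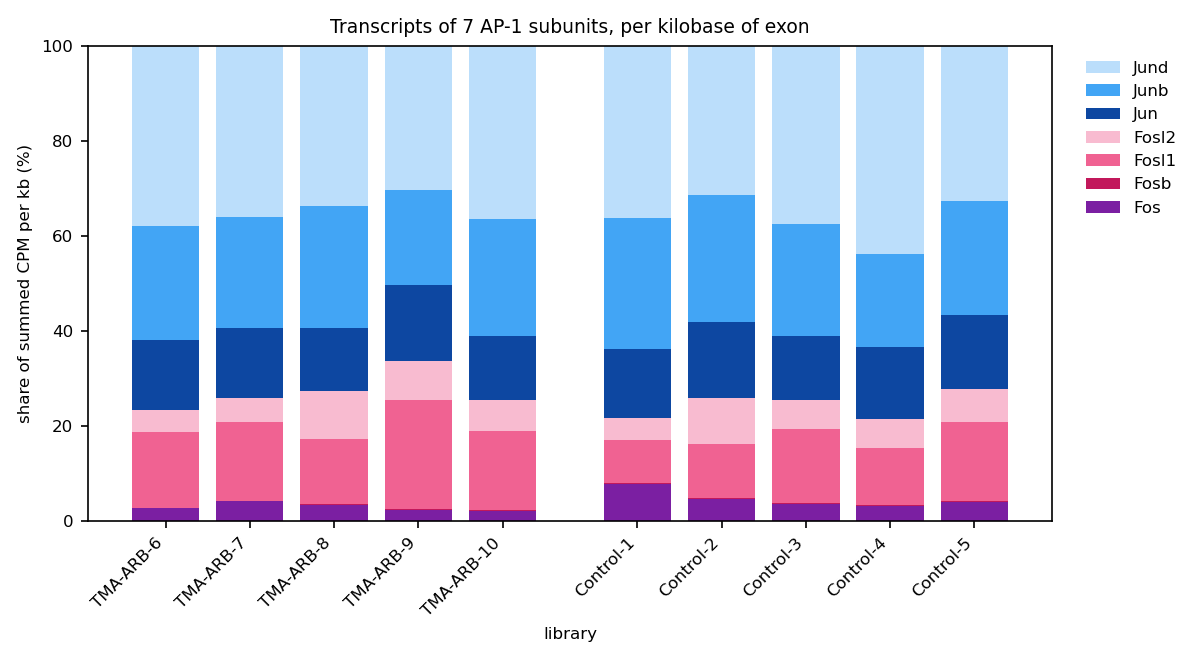
Share of each of 7 AP-1 subunits in their summed CPM per kilobase of exon (vertical axis, percent), with a stacked bar for each library, TMA-ARB at the left and control at the right. The Fos band is widest in control replicate 1 (7.64%) and narrowest in TMA-ARB replicate 10 (1.95%); the Fosb band is too thin to see, at 0.36% or less.

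The wider families held 0 called genes in either direction. Of 13 other AP-1 and Maf subunits tested, 10 were negative (median -0.15). Jund was at -0.34 ± 0.21 and Batf2 at -0.53 ± 0.34. Atf7 was listed with 0 counts in every library. Of the other Egr and Nr4a factors and their corepressors 4 of 5 tested were negative (median -0.23): Nr4a3 stood at -1.01 ± 0.59 with 1.25 ± 0.777 CPM under TMA-ARB and 2.50 ± 1.57 CPM in controls, Nr4a2 at -0.46 ± 0.30, and the Egr corepressor Nab1 at 0.25 ± 0.17. Egr3 held 23 counts over all libraries and Egr4 held 0, and neither was tested.

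Of 28 early feedback regulators 19 were negative, with a median of -0.10. Btg2, an antiproliferative gene, averaged 15.7 ± 3.14 CPM under TMA-ARB and 26.4 ± 11.2 CPM in controls (log2 fold change -0.75 ± 0.27; edgeR unadjusted p = 0.0160, adjusted p = 0.997). Zfp36l1, a relative of Zfp36, stood at -0.50 ± 0.25 and Csrnp1 at -0.40 ± 0.32. Of 18 other early transcription factors and kinases 9 were negative (median 0.01), with Id2, an inhibitor of bHLH factors, at -0.70 ± 0.28, Rhob at -0.32 ± 0.15 and Id3 at -0.35 ± 0.17. Whether these lists differ from the 10 immediate early genes was not tested.

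Upstream of the 10 genes, 14 of 20 MAP kinase cascade genes tested were negative, with a median of -0.06. Map2k2 averaged 141 ± 24.2 CPM under TMA-ARB and 175 ± 23.6 CPM in controls, a log2 fold change of -0.32 ± 0.17, and the ERK1 gene Mapk3 stood at -0.35 ± 0.20. Mapk8, which encodes the kinase JNK1, was at 0.25 ± 0.17. Of 11 genes for SRF, CREB and their cofactors 6 were negative (median -0.01). Among these was Mkl1, an actin-regulated SRF coactivator, at -0.31 ± 0.23. The CREB gene Creb1 stood at 0.26 ± 0.16 and Ep300 at 0.26 ± 0.29. No gene of either list passed edgeR (0 of 31), and none had an unadjusted p under 0.05 (0 of 31).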

How the data were processed

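The authors deposited estimated counts, as whole numbers, for 37882 genes in 10 libraries. Salmon is named as the tool and mm10 as the genome, per the submitters' processing notes; versions, annotation and strand setting are not given in the sources used here. Poly-A RNA was made into strand-marking libraries, per the labels' protocols. All values were whole (0 were not), 0 columns were left unmatched, and groups come from the sample titles.

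All 14063 genes that passed the default filter of edgeR 4.0.16 (R 4.3.3) were fitted with its quasi-likelihood test (TMM scaling, robust dispersions), and p-values were adjusted over them by the Benjamini-Hochberg method at 0.05. The standard error is the absolute log2 fold change divided by the square root of F. Log2 CPM used a prior count of 2. DESeq2 1.42.0, limma 3.58.1 (voom), other scalings and filters, covariates and single libraries left out were alternatives. Pairs of genes were compared with 100000 permutations within groups and single shares with an exact permutation test over 252 arrangements. Gene positions and exon lengths were read from GENCODE mouse release 21 (GRCm38, the assembly of mm10), and promoter windows from RefSeq (GRCm38.p6). No use of molecular identifiers is stated, and library size sets the precision of low genes.

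The genes, lists and settings were chosen with earlier results of these data known. Named genes are the 10 members, the 3 genes of smallest p in each other list, and the 6 genes most like the members, of which 2 list genes are not reported here; Fosl1, Fosl2, Krt18 and other markers were named beside them as part of a list's description.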

Additional observations from a re-analysis of the deposited data

Results flagged for a closer look

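In 2 groups of 5 libraries for Atf3 and 1 for Fos, the highest library topped the next by over 0.71 of the group range. For independent groups of normally distributed values such a gap comes up in about 1 in 20 groups, and 20 groups were examined. These groups share the same libraries, and most of the genes were high or low in the same ones, so the groups are not independent. Fos measured 30.9 CPM in TMA-ARB replicate 8. Atf3 measured 49.7 CPM in TMA-ARB replicate 8 and 48.6 CPM in control replicate 2.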

How the results depend on the processing

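EdgeR called 0 genes in the main setting, DESeq2 called 2 and the libraries above a 5% mitochondrial share alone called 4, none of them among the 10; in every setting run 0 of the 10 were called. The median of the 10 was -0.41; with the libraries of low share alone it reached -1.15, with those of high share 0.03, and with a library left out it ran from -0.76 to -0.30. All 10 were negative in the main setting, 4 were above the 5% share, and 8 to 10 were with a library left out. Above the 5% share Atf3 was at 1.44, Egr1 at 0.45, Fosb at 0.18, Ier2 at 0.059, Junb at 0.0071 and Nr4a1 at 0.43, and Atf3 was at 0.064 in limma-voom with sample weights. With a library left out Atf3 ran from -0.85 to 0.44 and Ier2 from -0.14 to 0.069. At a mean of at least 5 CPM Fosb was not tested. With the longest transcript in place of all exons, control levels moved by more than 1 SD to 107 CPM per kb for Junb, 43.6 for Dusp1 and 1.55 for Fosb. The cause of these differences was not tested. No paired analysis was possible because the groups share no replicate numbers. Of 51 genes of smallest p in the other lists, 32 moved by over 1.5 times and 5 of these changed sign when a library was left out. Fosb held 25 to 119 counts a library, which limits its precision.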

Other observations

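Among 17 delayed targets of SRF, YAP and AP-1 that were tested, 10 had a negative log2 fold change (median -0.10). Tgfb1 averaged 55.9 ± 21.3 CPM under TMA-ARB and 92.1 ± 29.5 CPM in controls (SD, n = 5 each; log2 fold change -0.72 ± 0.28). The protease gene Mmp3 stood at -0.58 ± 0.57, and at 0.15 without control replicate 2. Heat shock genes were split around 0 (5 of 12 negative, median 0.02). Hspa1a, an inducible chaperone gene, averaged 16.1 ± 6.51 CPM under TMA-ARB and 26.0 ± 17.7 CPM in controls (log2 fold change -0.69, or -0.24 without control replicate 2). Hspe1 stood at 0.39 ± 0.26 (0.09 without TMA-ARB replicate 7) and Hsp90aa1 at 0.35 ± 0.27 (0.08 without TMA-ARB replicate 9). Of 6 corticosteroid targets tested 4 were negative (median -0.09), with Fkbp5 at -0.37 ± 0.27, Klf9 at 0.74 ± 0.58 and Errfi1 at -0.32 ± 0.30. Without TMA-ARB replicate 8 Klf9 was at -0.07, and without control replicate 2 Errfi1 was at 0.001. No gene of these lists passed at an adjusted p under 0.05 (0 of 35), and Tgfb1 was the only 1 with an unadjusted p under 0.05.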
